A study of Mus musculus with 486 samples.

Results

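Pax5 and Pou2af1 were 2 of 47 genes analysed here by single-cell RT-qPCR in early lymphoid cells of mouse bone marrow; the labels speak of 96 assays, of which 48, including a spike-in, were in the table used. They were chosen by assay name: Pax5 (ENSMUSG00000014030) carries its own name in the deposited table, and Pou2af1 (ENSMUSG00000032053) is listed there under its older name OCAB. Pax5 encodes a paired-domain transcription factor that commits lymphoid progenitors to the B lineage, switching on B-cell genes and switching off genes of other lineages. Pou2af1 encodes a coactivator, also called OCA-B or OBF-1, that binds the octamer factors Oct-1 and Oct-2 on DNA and is largely restricted to B cells. Ebf1, a factor that acts early in B-lineage specification, is known to activate Pax5, and Igll1, which encodes a surrogate light chain component of the pre-B cell receptor, is a target of the B-lineage factors.

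All cells came from the bone marrow of wild-type C57/Bl6 mice and had been sorted by flow cytometry into 6 groups. Common lymphoid progenitors (CLP), which can still form several lymphoid lineages, were divided by the surface proteins Ly6d and Gfra2 into CLP Ly6d-Gfra2- (87 cells), CLP Ly6d+Gfra2- (86 cells) and CLP Ly6d+Gfra2+ (82 cells). Cells of FrA, an early compartment of B-cell development, were divided by Gfra2 and Bst1 into FrA Gfra2- Bst1- (83 cells), FrA Gfra2+ Bst1- (83 cells) and FrA Gfra2+ Bst1+ (42 cells). Each group lay on 2 plates of its own, except FrA Gfra2+ Bst1+, which lay on 1, so a plate difference and a group difference cannot be told apart. The labels give no age, and they name no animal: each group of cells therefore counts as 1 sample, and groups of cells were compared without p-values.

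The values are threshold cycles (Ct): the lower the Ct, the more template, with 1 cycle standing for a doubling at full PCR efficiency. An assay counted as detected at a Ct of at most 28, and a value of 40 means that none was recorded. Mean Ct over 3 reference assays (Atp5a1 and Hprt are 2 of them) ran from 11.22 in CLP Ly6d-Gfra2- to 12.62 in FrA Gfra2- Bst1-, and the mean number of assays detected per cell ran from 21.4 to 24.3. Il7r, the interleukin-7 receptor chain that marks these progenitors, was detected in 97.6% to 100% of the cells of each group. The Gfra2 transcript was detected in 90.5% to 93.9% of the cells of the 3 groups sorted as Gfra2+ and in 2.30% to 13.3% of those sorted as Gfra2-. Ly6d was not analysed here.

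Both promoters are shown because the shares of cells with Pax5 and with Pou2af1 rose together over the 6 groups. The sequences are RefSeq's on GRCm38.p6 and cover the 250 bases before the annotated start, read 5′ to 3′ on the gene's strand. Capitals mark matches to the E-box CANNTG, the motif of basic helix-loop-helix factors such as the E proteins, searched on both strands (the motif is its own reverse complement).
Pax5, chr4:44710695-44710944, minus strand: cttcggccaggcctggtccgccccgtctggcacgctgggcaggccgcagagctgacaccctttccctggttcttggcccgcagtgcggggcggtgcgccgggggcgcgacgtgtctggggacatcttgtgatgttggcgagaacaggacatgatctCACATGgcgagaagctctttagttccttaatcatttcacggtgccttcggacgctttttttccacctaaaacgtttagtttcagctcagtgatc
Pou2af1, chr9:51213440-51213689, plus strand: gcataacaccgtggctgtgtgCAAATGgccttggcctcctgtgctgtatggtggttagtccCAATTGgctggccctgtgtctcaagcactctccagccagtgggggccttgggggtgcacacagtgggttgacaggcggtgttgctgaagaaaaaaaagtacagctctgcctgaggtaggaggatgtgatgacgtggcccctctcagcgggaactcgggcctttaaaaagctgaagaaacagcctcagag
The Pax5 window held 1 E-box, CACATG at position -94, and the Pou2af1 window held 2, CAAATG at -229 and CAATTG at -189. An E-box was present in 66.2% of the 32851 mouse promoter windows of the same length. Neither window held CCCNNGGG, the core of the Ebf1 motif, which 11.8% of windows hold, or the octamer ATGCAAAT, which 1.60% hold, on either strand. The GC content was 58.8% for Pax5 and 56% for Pou2af1, against a median of 52.4% over all windows.

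Pax5 was rare in the 3 groups sorted as Gfra2- and common in the 3 sorted as Gfra2+. It was detected in 2 of 87 CLP Ly6d-Gfra2- cells (2.30%, exact 95% interval 0.280% to 8.06%), in 8 of 86 CLP Ly6d+Gfra2- cells (9.30%, 4.10% to 17.5%) and in 17 of 83 FrA Gfra2- Bst1- cells (20.5%, 12.4% to 30.8%). It was detected in 54 of 82 CLP Ly6d+Gfra2+ cells (65.9%, 54.6% to 76%), in 73 of 83 FrA Gfra2+ Bst1- cells (88.0%, 79% to 94.1%) and in 41 of 42 FrA Gfra2+ Bst1+ cells (97.6%, 87.4% to 99.9%). Placed in this order, the intervals of neighbouring groups overlapped except between FrA Gfra2- Bst1- and CLP Ly6d+Gfra2+ and between CLP Ly6d+Gfra2+ and FrA Gfra2+ Bst1-. These intervals, and all others given for shares, cover counting error only.

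Pou2af1 followed the same order of groups at lower shares. It was detected in 0 of 87 CLP Ly6d-Gfra2- cells, a count of 0 that allows up to 3.45% by the limit of 3 cells (exact upper bound 4.15%), in 1 of 86 CLP Ly6d+Gfra2- cells (1.16%) and in 3 of 83 FrA Gfra2- Bst1- cells (3.61%, 0.752% to 10.2%). It was detected in 35 of 82 CLP Ly6d+Gfra2+ cells (42.7%, 31.8% to 54.1%), in 45 of 83 FrA Gfra2+ Bst1- cells (54.2%, 42.9% to 65.2%) and in 30 of 42 FrA Gfra2+ Bst1+ cells (71.4%, 55.4% to 84.3%). Only the step from FrA Gfra2- Bst1- to CLP Ly6d+Gfra2+ had intervals that did not overlap. The 2 plates of CLP Ly6d+Gfra2+ were 52.5% and 33.3%, the widest plate gap for either gene, while those of FrA Gfra2+ Bst1- were 54.8% and 53.7%.

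**Figure D1:**
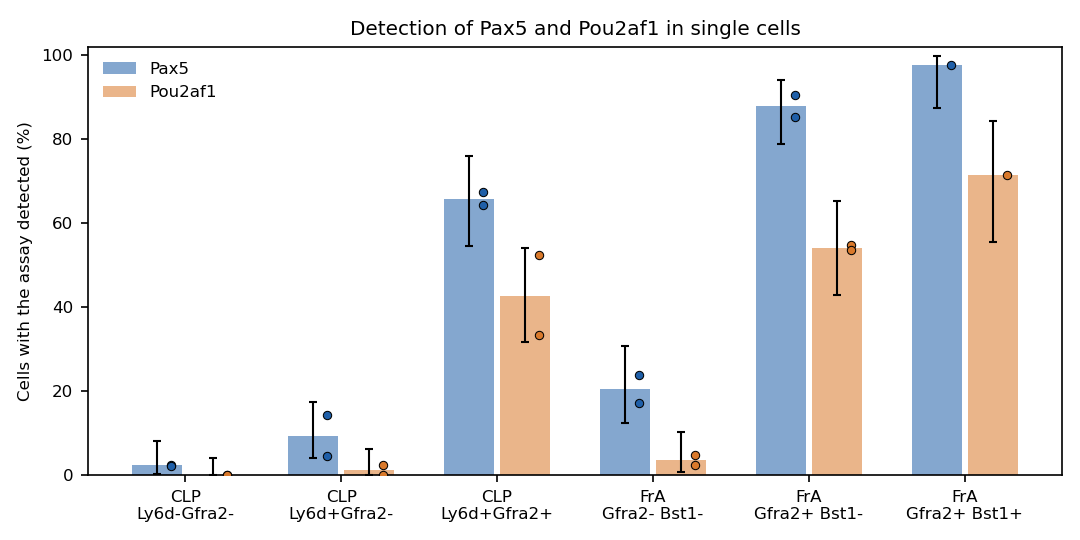
Share of single cells (%) with Pax5 (blue) and with Pou2af1 (orange) detected at a Ct of at most 28 in the 6 sorted groups. Bars are the group's share, whiskers the exact 95% interval for counting error, and points the single plates. Both genes are below 21% in the 3 Gfra2- groups and above 42% in the 3 Gfra2+ groups.

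Expressed as differences between neighbouring sorts, with a rule that asks for at least 20 percentage points and plates that do not overlap, the gain of Gfra2 was where both genes differed. Among CLP, the share of cells with Pax5 was 56.6 points higher in Ly6d+Gfra2+ than in Ly6d+Gfra2- (Newcombe 95% interval 43.1 to 66.9), the largest difference among the 45 assays counted, and that with Pou2af1 was 41.5 points higher (30.2 to 52.4). Both met the rule in the higher direction, which 13.3% of the assays met. Within FrA, Pax5 was 67.5 points higher in Gfra2+ Bst1- than in Gfra2- Bst1- (54.3 to 76.5), again the largest of 45, and Pou2af1 was 50.6 points higher (38.1 to 61.2), where 20% of the assays met the rule in that direction.

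The other steps were smaller for both genes. Gain of Ly6d without Gfra2 in CLP went with 7.00 points more for Pax5 (-0.267 to 15.2) and 1.16 points more for Pou2af1 (-3.17 to 6.30); neither met the rule, and 4.44% of assays were called higher. The Pax5 difference moved with the plates of CLP Ly6d+Gfra2-, to 2.25 points without plate 6 and 11.99 without plate 7. Gain of Bst1 in FrA went with 9.67 points more for Pax5 (-1.63 to 18.6) and 17.2 points more for Pou2af1 (-0.977 to 32.8), and neither met the rule, which 4.44% of assays did. For Pax5 this was 1.84 points among cells in the middle 50% of reference Ct, and 16.9 points at a detection limit of Ct 18. FrA Gfra2+ Bst1- stood 22.1 points above CLP Ly6d+Gfra2+ for Pax5 (9.31 to 34.1), which met the rule beside 4.44% of assays, and 11.5 points above it for Pou2af1 (-3.64 to 26.0), which did not. That Pax5 call was lost when plate 3 was left out, at 19.5 points, and without plate 1 the Pou2af1 difference was 20.9 points and met the rule. FrA Gfra2- Bst1- stood 11.2 points above CLP Ly6d+Gfra2- for Pax5 (0.367 to 22.1) and 2.45 points above it for Pou2af1 (-3.21 to 9.00), with neither called where 4.44% of assays were. The Pax5 difference was 6.20 points without plate 7 and 15.9 without plate 6, and 2.14 points among cells without the Gfra2 transcript.

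Among the cells that had Pax5, its Ct also differed between groups. In CLP Ly6d-Gfra2- the 2 cells had Ct 17.72 and 19.11. Among CLP Ly6d+Gfra2- cells the lowest, median and highest Ct were 16.70, 18.37 and 21.19, and in FrA Gfra2- Bst1- they were 14.34, 18.87 and 19.93. The cells with Pax5 in the Gfra2- groups thus had mostly late Ct, with a few FrA cells as early as those of the Gfra2+ groups.

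In the Gfra2+ groups the lowest, median and highest Pax5 Ct were 12.72, 16.33 and 20.11 in CLP Ly6d+Gfra2+, and 13.40, 15.72 and 19.40 in FrA Gfra2+ Bst1-. In FrA Gfra2+ Bst1+ they were 12.79, 14.34 and 19.30. Mean Pax5 Ct in FrA fell from 18.05 ± 1.69 (SD over 17 cells) in Gfra2- Bst1- to 15.86 ± 1.46 (73 cells) in Gfra2+ Bst1-, a level 2.19 cycles higher that met a rule of at least 1 cycle with plates apart, as did 32.1% of the 28 assays compared. It fell further to 14.48 ± 1.21 (41 cells) in Gfra2+ Bst1+, a level 1.39 cycles higher that met the rule beside 6.67% of 30 assays. Relative to the reference assays these differences were 1.15 and 1.47 cycles, and relative to the spike-in RNA 1.37 and 3.00 cycles; the mean spike-in Ct was 7.48, 6.70 and 8.35 in these 3 groups. So in FrA both the share of cells with Pax5 and the Pax5 level in those cells were higher after gain of Gfra2. Gain of Bst1 met the rule for the level. For the share it could not, since 88.0% of FrA Gfra2+ Bst1- cells already had Pax5.

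Pou2af1 was read later than Pax5 in every group where it was detected. Its lowest, median and highest Ct were 21.09, 22.99 and 26.66 in CLP Ly6d+Gfra2+, 20.30, 22.88 and 26.65 in FrA Gfra2+ Bst1-, and 21.34, 22.60 and 25.32 in FrA Gfra2+ Bst1+. The single CLP Ly6d+Gfra2- cell had Ct 25.50, and the 3 FrA Gfra2- Bst1- cells had 23.74, 24.16 and 26.19. No other assay with any reading had so high a lowest Ct, and 28 of the 114 Pou2af1 readings lay above Ct 24, against 0 of the 195 Pax5 readings. How efficiently each assay amplifies is not known, so the Ct of Pou2af1 and of Pax5 cannot be set against each other as levels. Mean Pou2af1 Ct was 23.52 ± 1.73 (35 cells), 22.92 ± 1.34 (45 cells) and 22.75 ± 0.99 (30 cells) in the 3 Gfra2+ groups. The Pou2af1 level was 0.18 cycles higher with Bst1 in FrA and 0.60 cycles higher in FrA Gfra2+ Bst1- than in CLP Ly6d+Gfra2+, less than 1 SD over cells, and neither met the rule. At a detection limit of Ct 24 both signs turned, to -0.12 and -0.21 cycles; without plate 3 the first was -0.08, and without plate 10 the second was 0.15. The latter comparison gave 0.52 cycles for Pax5, also not called, where 6.9% of 29 assays met the rule; relative to the spike-in the signs turned, to -1.18 cycles for Pax5 and -0.70 for Pou2af1.

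**Figure D2:**
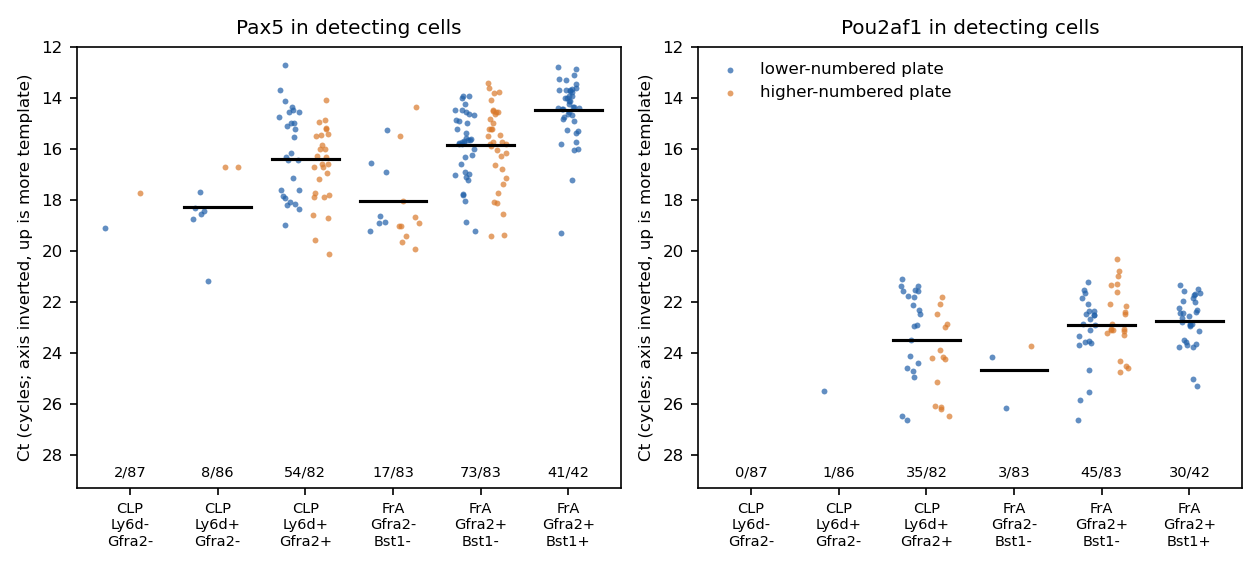
Ct of Pax5 (left) and Pou2af1 (right) in each cell in which it was detected, by group; the vertical axis is inverted, so higher points are more template. Colours separate the plates of a group, bars are means where 3 or more cells were detected, and the fractions give detecting cells over all cells. Pax5 moves from a mean of 18.05 through 15.86 to 14.48 over the 3 FrA groups, while the Pou2af1 means of the 3 Gfra2+ groups lie between 22.75 and 23.52.

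Cell by cell, Pou2af1 was nearly always found with Pax5, and Pax5 was often found without Pou2af1. Of 463 cells, 107 had both, 88 had Pax5 alone of the pair and 7 had Pou2af1 alone. The CLP Ly6d+Gfra2+ group held 32 cells with both, 22 with Pax5 only, 3 with Pou2af1 only and 25 with neither. In FrA Gfra2+ Bst1- the counts were 42, 31, 3 and 7, and in FrA Gfra2+ Bst1+ they were 30, 11, 0 and 1. In the Gfra2- groups the cells with both numbered 0 in CLP Ly6d-Gfra2-, 1 in CLP Ly6d+Gfra2- and 2 in FrA Gfra2- Bst1-.

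Read from the side of Pou2af1, Pax5 was present in 32 of 35 Pou2af1 cells of CLP Ly6d+Gfra2+ (91.4%, 76.9% to 98.2%), in 42 of 45 of FrA Gfra2+ Bst1- (93.3%, 81.7% to 98.6%) and in 30 of 30 of FrA Gfra2+ Bst1+. Over all cells of these groups Pax5 was present in 65.9%, 88.0% and 97.6%. Pou2af1 cells thus stood well above their group in CLP Ly6d+Gfra2+ and close to it in both FrA groups. With Pax5 in 88.0% and 97.6% of all cells, the FrA groups left them little room to stand higher, so the groups cannot be contrasted on this. Read from the side of Pax5, Pou2af1 was present in 32 of 54 Pax5 cells of CLP Ly6d+Gfra2+ (59.3%, 45.0% to 72.4%), in 42 of 73 of FrA Gfra2+ Bst1- (57.5%, 45.4% to 69%) and in 30 of 41 of FrA Gfra2+ Bst1+ (73.2%, 57.1% to 85.8%). These intervals overlapped in all 3 groups, and the plates of CLP Ly6d+Gfra2+ were 66.7% and 51.9%. At a detection limit of Ct 24 the share of Pax5 cells with Pou2af1 was 35.2% in CLP Ly6d+Gfra2+ and 49.3% in FrA Gfra2+ Bst1-. Without Pax5, Pou2af1 was found in 3 of 28 cells of CLP Ly6d+Gfra2+ (10.7%, 2.27% to 28.2%), all 3 on plate 1, and in 3 of 10 cells of FrA Gfra2+ Bst1- (30%, 6.67% to 65.2%).

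**Figure D3:**
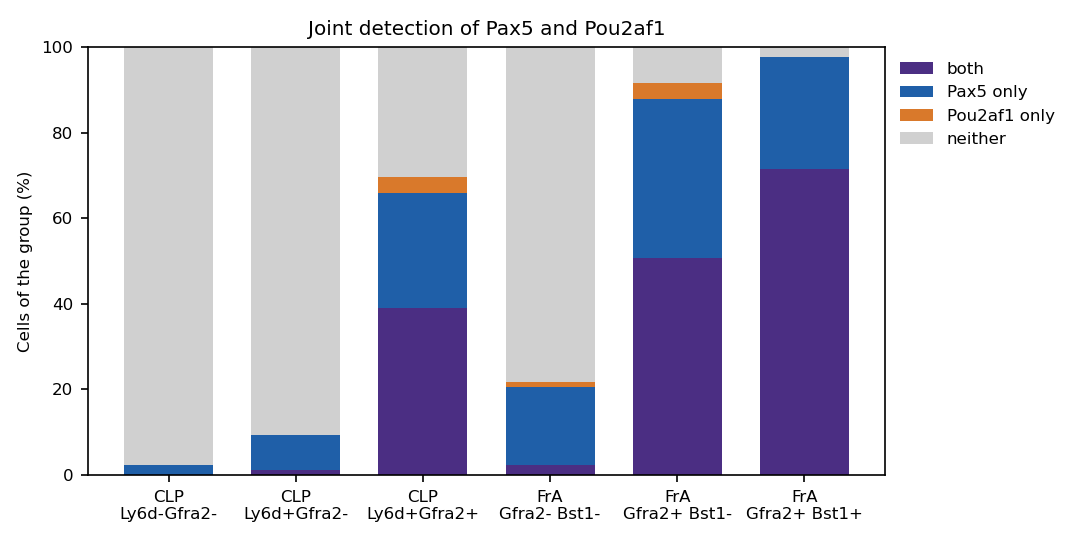
Cells of each sorted group (%) in which both Pax5 and Pou2af1, only Pax5, only Pou2af1 or neither was detected. Cells with Pou2af1 only make up at most 3.66% of a group, while cells with Pax5 only make up 26.2% to 37.3% of the 3 Gfra2+ groups.

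Ebf1 was detected in nearly all cells with either gene. Only 1 of the 195 Pax5 cells, in FrA Gfra2- Bst1-, lacked Ebf1, and none of the 114 Pou2af1 cells did. Many cells had Ebf1 without Pax5: 27 of 87 in CLP Ly6d-Gfra2-, 55 of 86 in CLP Ly6d+Gfra2-, 28 of 82 in CLP Ly6d+Gfra2+ and 29 of 83 in FrA Gfra2- Bst1-, but 8 of 83 in FrA Gfra2+ Bst1- and 0 of 42 in FrA Gfra2+ Bst1+. A nested pattern, with no Pax5 without Ebf1 and no Pou2af1 without Pax5, held in 87 of 87, 86 of 86, 79 of 82, 81 of 83, 80 of 83 and 42 of 42 cells of the groups in the order CLP Ly6d-Gfra2-, CLP Ly6d+Gfra2-, CLP Ly6d+Gfra2+, FrA Gfra2- Bst1-, FrA Gfra2+ Bst1- and FrA Gfra2+ Bst1+. In several groups the shares left this pattern little room to fail. CLP Ly6d-Gfra2- and CLP Ly6d+Gfra2- held 0 and 1 Pou2af1 cells and 2 and 8 Pax5 cells. Every CLP Ly6d+Gfra2+ cell had Ebf1, and 41 of 42 FrA Gfra2+ Bst1+ cells had Pax5 with Ebf1. Since Ebf1 was read at early Ct and Pou2af1 at late Ct, the pattern also follows how readily each assay was detected, and how far that sets it was not tested.

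Igll1 was detected in 95 cells, of which 5 lacked Pax5. Cells with Pax5, Pou2af1 and Igll1 together made up 10 of 82 in CLP Ly6d+Gfra2+ (12.2%, 6.01% to 21.3%), 33 of 83 in FrA Gfra2+ Bst1- (39.8%, 29.2% to 51.1%) and 25 of 42 in FrA Gfra2+ Bst1+ (59.5%, 43.3% to 74.4%). Among CLP Ly6d+Gfra2+ cells, 22 had Pax5 and Pou2af1 without Igll1 and 3 had Pax5 and Igll1 without Pou2af1. In FrA Gfra2+ Bst1- these counts were 9 and 9, and in FrA Gfra2+ Bst1+ they were 5 and 8. In counts, Pou2af1 was more frequent than Igll1 among Pax5 cells of CLP Ly6d+Gfra2+, and the counts were even or turned in FrA.

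Cells with Pou2af1 had a higher Pax5 level than Pax5 cells without it. Its lowest, median and highest Ct in CLP Ly6d+Gfra2+ were 12.72, 15.30 and 18.19 in the 32 cells with Pou2af1 and 15.24, 17.84 and 20.11 in the 22 without. The means were 15.64 ± 1.34 and 17.46 ± 1.37, a difference of 1.82 cycles that was 2.08 on plate 1 and 1.49 on plate 10. The mean reference Ct of the same cells was 11.89 and 11.95, and the Pax5 difference relative to the reference assays was 1.76 cycles.

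The same held in FrA Gfra2+ Bst1-. There the lowest, median and highest Pax5 Ct were 13.40, 15.23 and 19.38 in the 42 cells with Pou2af1 and 14.01, 16.24 and 19.40 in the 31 without. The mean difference was 1.24 cycles (15.34 ± 1.31 against 16.58 ± 1.35), 1.02 and 1.49 on its plates, and 1.01 relative to the reference assays. In FrA Gfra2+ Bst1+ the means were 14.31 ± 0.83 (30 cells) and 14.94 ± 1.88 (11 cells), a difference of 0.63 cycles that fell to 0.22 relative to the reference assays, with reference Ct 11.76 and 12.17. The ranges of the cells with and without Pou2af1 overlapped in each of the 3 groups.

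**Figure D4:**
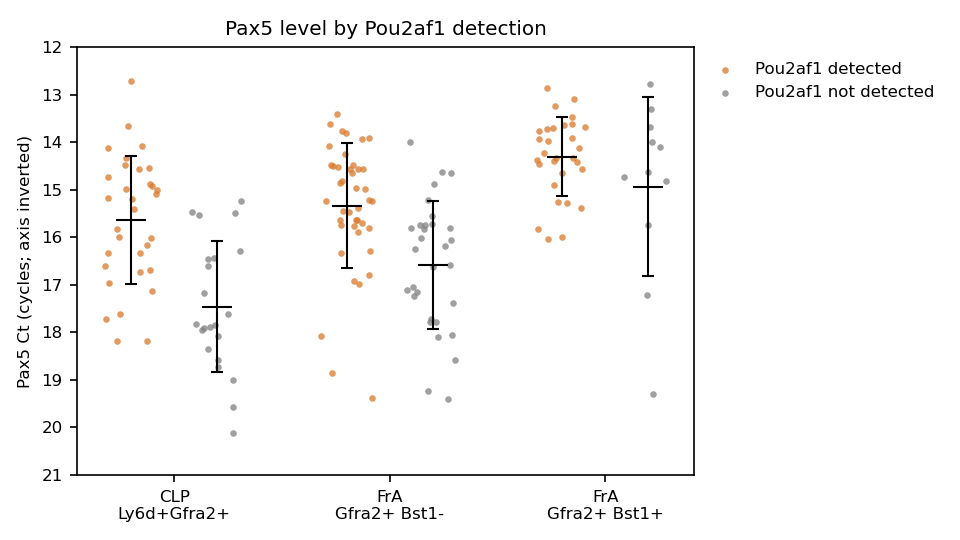
Pax5 Ct of single cells (inverted axis) in the 3 Gfra2+ groups, for cells with Pou2af1 detected (orange) and not detected (grey); horizontal marks are means and whiskers 1 SD over cells. Cells with Pou2af1 lie higher by 1.82 cycles in CLP Ly6d+Gfra2+, 1.24 in FrA Gfra2+ Bst1- and 0.63 in FrA Gfra2+ Bst1+.

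The same cells and readings can be taken from the other side, by dividing the Pax5 cells of a group at their median Pax5 Ct; this restates the relation as shares and adds no separate evidence. In CLP Ly6d+Gfra2+, Pou2af1 was detected in 22 of the 27 cells at or below a Ct of 16.33 (81.5%, 61.9% to 93.7%) and in 10 of the 27 above it (37.0%, 19.4% to 57.6%). In FrA Gfra2+ Bst1-, divided at 15.72, it was detected in 30 of 37 (81.1%, 64.8% to 92.0%) and in 12 of 36 (33.3%, 18.6% to 51%). In FrA Gfra2+ Bst1+, divided at 14.34, the counts were 16 of 21 and 14 of 20, with overlapping intervals.

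Igll1 was detected in 10 of 27 and 3 of 27 cells of CLP Ly6d+Gfra2+ on the high and low side, in 31 of 37 and 11 of 36 of FrA Gfra2+ Bst1-, and in 19 of 21 and 14 of 20 of FrA Gfra2+ Bst1+. The exact intervals were apart in FrA Gfra2+ Bst1- (68% to 93.8% against 16.3% to 48.1%) and overlapped in CLP Ly6d+Gfra2+ (19.4% to 57.6% against 2.35% to 29.2%) and FrA Gfra2+ Bst1+ (69.6% to 98.8% against 45.7% to 88.1%). In FrA Gfra2+ Bst1+ the mean reference Ct of the high and low side was 11.43 and 12.33. Pax5 was 1.29, 1.56 and 1.73 cycles higher in Pax5 cells with Igll1 than in those without in these groups, or 0.62, 1.47 and 1.75 cycles relative to the reference assays. In CLP Ly6d+Gfra2+ the cells with Igll1 also had more template in the reference assays, at a mean Ct of 11.41 against 12.08. The Pou2af1 level differed with Igll1 by 1.32, 0.86 and 0.05 cycles.

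Where both transcripts were measured, their Ct were weakly to moderately related across cells. Pearson's r between Pax5 and Pou2af1 Ct was 0.35 over 32 cells of CLP Ly6d+Gfra2+, 0.38 over 42 cells of FrA Gfra2+ Bst1- and 0.17 over 30 cells of FrA Gfra2+ Bst1+. Spearman's coefficient was 0.39, 0.51 and 0.26. With the mean reference Ct subtracted from both, which gives the values a shared term, Pearson's r was 0.34, 0.52 and 0.52. Spearman's coefficient was then 0.30, 0.59 and 0.48. The cells of a group share plates and reagents, so these coefficients are descriptions without a p-value.

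Other assays were then compared between cells with and without each gene inside a group, where at least 15 cells of each kind were present. An assay was called when its share of cells differed by at least 20 points in the same direction on both plates. In CLP Ly6d+Gfra2+, 5 of 15 assays were called with Pax5 (33.3%) and 6 of 15 with Pou2af1 (40%), against 21% of all ordered pairs of assays in the group. Mean reference Ct was 11.91 and 11.99 in cells with and without Pax5, and 11.90 and 11.97 with and without Pou2af1, while cells with Pax5 had 24.4 assays detected against 22.7, and cells with Pou2af1 24.5 against 23.3. The median difference over the assays compared, the called ones among them, was 13.6 points with Pax5 and 11.7 points with Pou2af1. How far a general rise in detection enters the calls of higher shares was not tested.

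With Pax5 in CLP Ly6d+Gfra2+, all 5 called assays were more frequent. Apart from Pou2af1 (48.5 points), Bcl2l1, which encodes the survival protein Bcl-xL, was detected in 35 of 54 cells with Pax5 and 9 of 28 without (32.7 points, 9.86 to 50.9). Rag1, which encodes part of the enzyme that cuts antigen receptor genes, and Bach2, a transcription factor of the B lineage, were each detected in 46 of 54 against 17 of 28 (24.5 points, 4.82 to 44.1). Igll1 was detected in 13 of 54 against 1 of 28 (20.5 points, 3.51 to 33.7). The Bcl2l1 and Bach2 differences rested on plate 1, and without it they were 12.6 and 14.1 points and not called.

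With Pou2af1 in the same group, Rag1 was detected in 33 of 35 cells against 30 of 47 without (30.5 points, 12.7 to 45.3), and Igll1 in 10 of 35 against 4 of 47 (20.1 points, 3.32 to 37.3). The Rag1 call was lost at a detection limit of Ct 24 (17.4 points), and the Igll1 calls with Pou2af1 and with Pax5 were lost in the middle 50% of reference Ct (18.9 and 18.3 points). Bst1, the surface enzyme that was not used to sort CLP, was detected in 13 of 35 against 6 of 47 (24.4 points, 5.69 to 42.2). Bad, which encodes a pro-apoptotic protein of the Bcl-2 family, was less frequent, at 17 of 35 against 35 of 47 (-25.9 points, -44.6 to -4.76), with -35.6 points on plate 1 and -10.7 on plate 10. Klrb1c, which encodes the natural killer cell marker NK1.1, was detected in 15 of 35 against 7 of 47 (28.0 points, 8.35 to 45.9), and in 16.5 points more, not called, when plate 10 was left out. Of the other assays on a list of natural killer and innate lymphoid markers, Nfil3 differed by 6.14 points and Id2 by 11.7 points, and neither was called; Il2rb was detected in 8.54% of the group's cells, too few to be compared. The part of such cells in the Klrb1c result was not tested.

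In FrA Gfra2- Bst1-, 6 of 20 assays were called with Pax5 (30%), against 24.4% of all ordered pairs. The number of calls was thus close to that of other assays in this group. Among those called, Ebf1 was detected in 16 of the 17 Pax5 cells against 29 of 66 without Pax5 (50.2 points, 25.9 to 62.5). Rag1 was detected in 9 of 17 against 7 of 66 (42.3 points, 18.3 to 63.9), and Dntt, the terminal transferase, in 17 of 17 against 52 of 66 (21.2 points, 1.07 to 32.5). Spib, an Ets-family factor of B cells and plasmacytoid dendritic cells, was less frequent, in 5 of 17 against 47 of 66 (-41.8 points, -60.5 to -15.3), as was the survival gene Bcl2, in 9 of 17 against 60 of 66 (-38.0 points, -60.5 to -15.1). The Bcl2 difference was uneven over the plates, at -71.4 and -11.2 points.

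The Gfra2 transcript was also more frequent in these Pax5 cells, detected in 9 of 17 against 2 of 66 (49.9 points, 26.7 to 70.9), although the whole group had been sorted as Gfra2-. Of the 11 cells of this group with the Gfra2 transcript, 9 thus had Pax5. In CLP Ly6d+Gfra2- 1 of the 8 Pax5 cells had the Gfra2 transcript, and in CLP Ly6d-Gfra2- neither of the 2 did. All 54 Pax5 cells of CLP Ly6d+Gfra2+ had it. In the FrA Gfra2+ groups it was found in 70 of 73 and 38 of 41 Pax5 cells.

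In FrA Gfra2+ Bst1-, where 10 cells lacked Pax5 and only Pou2af1 could be examined, 3 of 20 assays were called with Pou2af1 (15%), against 7.31% of all ordered pairs. Igll1 was detected in 35 of 45 cells with Pou2af1 and 10 of 38 without (51.5 points, 30.4 to 66.4). The Bst1 transcript was detected in 23 of 45 against 6 of 38 (35.3 points, 15.0 to 51.6), although the group was sorted as Bst1-. Rag1 was detected in 41 of 45 against 26 of 38 (22.7 points, 5.47 to 39.5), with 12.4 points on plate 3 alone and 15.3 at a detection limit of Ct 24, where it was not called. Without plate 3, 7 assays were called in place of 3. Pax5 itself was detected in 42 of 45 against 31 of 38 (11.8 points, -2.73 to 27.4) and was not called. Its difference was uneven over the plates, at 1.83 points on plate 3 and 21.8 on the other plate. FrA Gfra2+ Bst1+ and the 2 Gfra2- groups of CLP had too few cells of 1 kind for either gene.

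**Figure D5:**
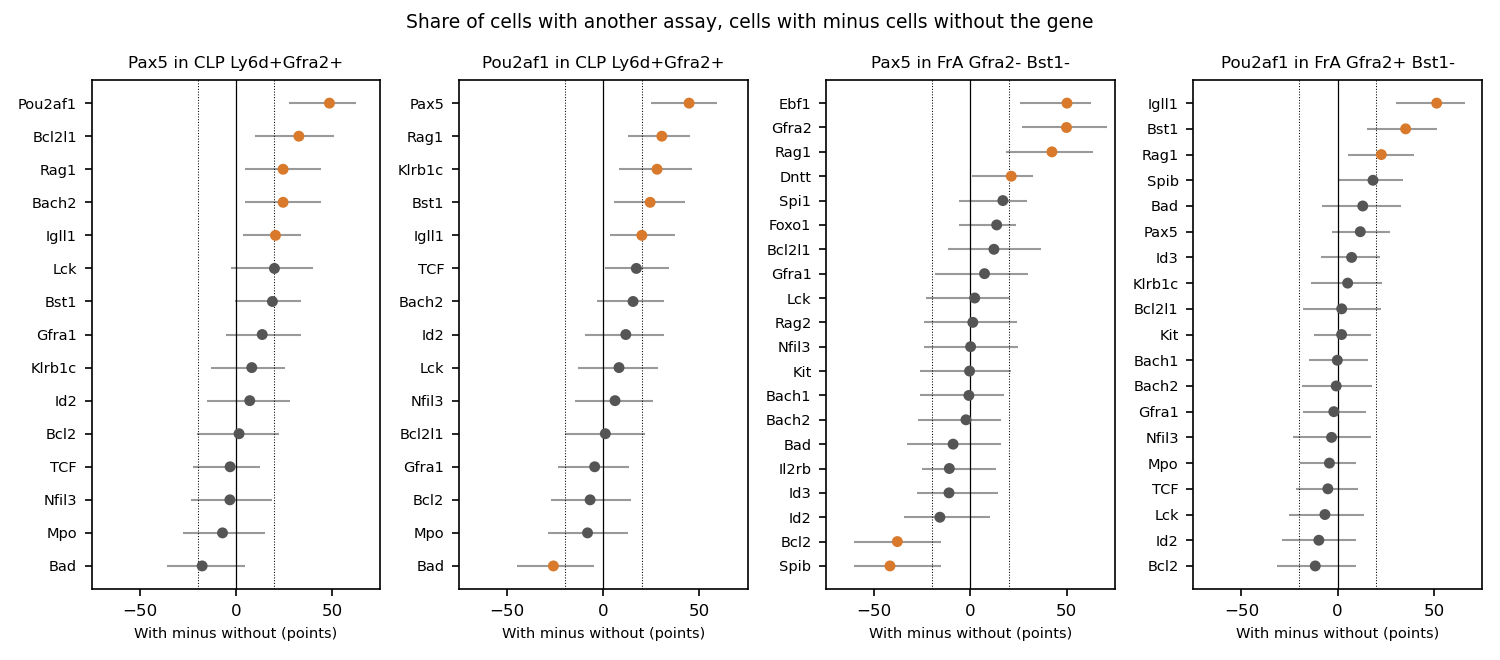
Difference in the share of cells with another assay (percentage points, cells with minus cells without the named gene) with Newcombe 95% intervals, in the 4 gene and group combinations that could be examined; 1 assay in the last panel is not shown. Orange points met the rule of 20 points (dotted lines) with the same sign on both plates, and they number 5, 6, 6 and 3 from left to right.

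The levels of other assays were compared as well, among the cells that had them and where at least 10 such cells were present on each side, a reading added after the shares had been seen. In CLP Ly6d+Gfra2+, where every cell had Ebf1, its mean Ct was 11.46 ± 1.06 in the 54 cells with Pax5 and 12.58 ± 1.25 in the 28 without, a level 1.12 cycles higher (1.47 and 0.76 on the plates, 1.04 relative to the reference assays). Foxo1, a forkhead factor of early B-cell development, was 1.03 cycles higher, or 0.95 relative to the reference assays, which is below the rule. Gfra2 was 1.51 cycles higher in the cells that had it. These 3 were the assays called of 27 compared (11.1%), and Il7r differed by 0.13 cycles.

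With Pou2af1 in the same group, Ebf1 was 1.22, Foxo1 1.29 and Gfra2 1.39 cycles higher, and with Pax5 itself these were the 4 assays called of 29 (13.8%). In FrA Gfra2+ Bst1-, Ebf1 was 1.01 cycles higher with Pou2af1 (10.50 ± 0.76 in 45 cells against 11.51 ± 1.21 in 36), with 0.45 and 1.57 on the plates and 0.96 relative to the reference assays, and Igll1 1.38 cycles higher, while Nfil3 was 1.09 cycles lower; with Pax5 these were 4 of 29 (13.8%). In FrA Gfra2- Bst1-, Ebf1 was 2.47 cycles higher in Pax5 cells (12.31 ± 1.42 in 16 cells against 14.79 ± 2.57 in 29), and Cd24a, a surface protein of early B cells, 1.21 cycles higher, the 2 called of 20 (10%). Over all ordered pairs of assays the same rule called 4.4% in CLP Ly6d+Gfra2+, 6.19% in FrA Gfra2- Bst1- and 5.33% in FrA Gfra2+ Bst1-. Ebf1 was called at a higher level in each of the 4 combinations examined. On 1 plate its difference was below 1 cycle in CLP Ly6d+Gfra2+ (0.76 with Pax5, 0.80 with Pou2af1) and in FrA Gfra2+ Bst1- (0.45). In FrA Gfra2+ Bst1- it was also below 1 cycle relative to the reference assays.

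Fixed gene lists were read beside both genes. Of 13 B-lineage transcription factors listed, 9 were measured, and Pax5 and Pou2af1 had themselves been put on this list. Their own calls in it thus repeat the differences given above and add no separate evidence. With gain of Gfra2 in CLP, 4 of the 9 were called higher: both genes, Ebf1 (26.7 points) and Foxo1 (25.6 points). With gain of Gfra2 in FrA, 3 were called higher, both genes and Ebf1 (43.4 points), and Spib was called lower (-42.2 points), where 15.6% of assays in CLP and 24.4% in FrA were called in either direction. The list's median difference was 5.90 and 0 points in these 2 comparisons, beside 0.06 and 1.20 points over all assays, so the change lay in a few of its members.

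Of the 3 V(D)J recombination genes, Rag1 was called higher with gain of Gfra2 in CLP (43.1 points), and Rag1 (61.4 points) and Rag2 (34.9 points) in FrA. Igll1, on a list of target genes, was called higher in FrA with gain of Gfra2 (51.8 points) and of Bst1 (24.4 points). It was also called higher in FrA Gfra2+ Bst1- against CLP Ly6d+Gfra2+ (37.1 points), but not with gain of Gfra2 in CLP (15.9 points). Where Igll1 was called, 20%, 4.44% and 4.44% of assays were called higher. Of 9 measured genes of other lineages, such as Mpo, Notch1 and Kit, none was called with gain of Gfra2 in CLP, and in FrA only Kit, the stem cell factor receptor, was called, as higher (22.9 points). Lck differed most in CLP, at -19.7 points, just below the rule. Some of the 9 were too rare to fall by 20 points. Cebpa and Gata3 were in 3.49% and 6.98% of CLP Ly6d+Gfra2- cells. In FrA Gfra2- Bst1- cells, Cebpa, Gata3 and Mpo were in 2.41%, 6.02% and 8.43%. Mpo, a myeloid enzyme gene on the same list, was called lower elsewhere, namely with gain of Ly6d in CLP (-23.5 points), in FrA Gfra2+ Bst1- against CLP Ly6d+Gfra2+ (-45.3 points) and in FrA Gfra2- Bst1- against CLP Ly6d+Gfra2- (-47.4 points). In these comparisons 8.89%, 6.67% and 11.1% of all assays were called in either direction. Inside the groups, 3 to 5 of these 9 could be compared between cells with and without Pax5 or Pou2af1, and none was called in any of the 4 combinations. In CLP Ly6d+Gfra2+, Mpo was detected in 29 of 54 Pax5 cells and 17 of 28 without Pax5 (-7.01 points, -27.5 to 15.2). In FrA Gfra2- Bst1-, Id2, whose product blocks E proteins, was found in 4 of 17 against 26 of 66 (-15.9 points, -34.3 to 10.2).

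Over the 6 groups, the assays whose share of cells was most like that of Pax5 were Pou2af1 (Pearson's r = 0.99), Gfra2 (0.96) and Rag1 (0.93). Those most like Pou2af1 were Pax5 (0.99), Klrb1c (0.97) and Gfra2 (0.95). The groups had been sorted on Gfra2, and Klrb1c ranged only from 7.23% to 35.7%. With 6 points that share plates within groups, these values are descriptions without a p-value.

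Wells of 10 and of 20 cells, 1 of each on 10 of the plates, gave a second reading of both genes, in which fewer cells with a transcript and less transcript per cell cannot be told apart. Pax5 was detected in 8 of 10 wells of each size, and the wells without it were the 4 of CLP Ly6d-Gfra2-. Its Ct ran from 11.16 to 12.14 in FrA Gfra2+ Bst1- wells, 12.30 to 13.80 in CLP Ly6d+Gfra2+, 14.92 to 17.72 in FrA Gfra2- Bst1- and 18.92 to 20.23 in CLP Ly6d+Gfra2-. The ranges of these 4 groups did not overlap, and their order was that of the single-cell shares.

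Pou2af1 was detected in 4 of the 10-cell and 6 of the 20-cell wells. These were all 8 wells of CLP Ly6d+Gfra2+ (Ct 20.15 to 23.22) and FrA Gfra2+ Bst1- (18.53 to 21.66), and both 20-cell wells of CLP Ly6d+Gfra2- (26.20 and 24.82). The last of these stood on plate 7, where 0 of 44 single cells had Pou2af1. In the 4 wells of FrA Gfra2- Bst1- and the 4 of CLP Ly6d-Gfra2- no Pou2af1 was detected.

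Wells of 20 cells came earlier than wells of 10 by 0.53 ± 1.15 cycles for Pax5 (SD over 8 plates, 6 of them in that direction; exact two-sided sign-flip permutation p = 0.219) and by 1.63 ± 0.39 cycles for Pou2af1 (4 of 4 plates; exact p = 0.125, the smallest that 4 plates allow). The Benjamini-Hochberg adjusted p over both genes was 0.219 for each by the same exact test. The reference assays differed by 0.894 cycles on the 8 plates and by 1.06 on the 4, and a doubling of cells stands for 1 cycle at full efficiency. Leaving out 1 plate at a time gave exact p-values of 0.188 to 0.438 for Pax5, except without plate 8, where the difference was 0.87 cycles and p was 0.031. On that plate the 20-cell well was 1.80 cycles later than the 10-cell well, and this plate did not stand apart from the 8 plates by Dixon’s ratio (0.424, critical value 0.526).

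Summing the template of a plate's single cells gives the Ct a pool would have if it held average cells. Pax5 pools of FrA Gfra2+ Bst1- came 0.09 cycles earlier than that on average over 4 wells (-0.13 to 0.38), so cells and pools matched there. Pools came later by a mean of 0.54 cycles in CLP Ly6d+Gfra2+ (-0.86 to -0.35), 0.96 in FrA Gfra2- Bst1- (-3.13 to 0.35) and 2.34 in CLP Ly6d+Gfra2- (-3.04 to -1.88). For Pou2af1 the mean was -0.43 cycles in FrA Gfra2+ Bst1- (-1.42 to 0.21) and -1.21 in CLP Ly6d+Gfra2+ (-1.49 to -0.80). Where 2 to 6 of the 42 to 44 single cells of a plate had Pax5, as in CLP Ly6d+Gfra2-, the sum rests on those few cells.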

How the data were processed

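The deposited table holds 1 value per assay and well for 486 wells on 11 plates and 48 assays, 47 of them genes and 1 a spike-in RNA. The authors pre-amplified cDNA with TaqMan assays and read it on a BioMark HD, per the labels' protocols, and the deposited values are threshold cycles (Ct). For the instrument software and any normalisation, the sources used here give nothing. Recorded values ran from 4.69 to 28.1, and 40 was read as none.

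Cells entered when at least 2 of 3 reference assays were detected, which kept 463 of 464 single-cell wells. Shares carry exact Clopper-Pearson 95% intervals and differences Newcombe intervals, for counting error only. Gfra2 and Bst1, used for sorting, were left out of the counts over assays, which left 45. Shares were called at 20 points with plates apart, levels at 1 cycle with at least 15 detecting cells a group, and associations at 20 points with 15 cells of each kind, for assays in 10% to 90% of cells. Another detection limit, rule of size, scaling, the middle 50% of reference Ct and leaving out each plate were tried. Named genes were both members, up to 5 called assays in each direction for each member and group, the 3 assays most alike over groups, list members and check assays. Members and lists were chosen with earlier results of these data known. Pools were compared with an exact sign-flip permutation test over plates, without evidence that plates came from different animals, so that its p-values measure only the spread between plates. Promoters matched both genes in RefSeq's table, credited to GRCm38.p6. Procedures were tested on simulated data. Values of 2 assays are not reported here. Python 3.11.15, numpy 2.4.6, pandas 2.3.3, scipy 1.17.1 and matplotlib 3.10.9 were used.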

Additional observations from a re-analysis of the deposited data

Results flagged for a closer look

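Both wells on plate 8 whose titles mark them as controls without reverse transcriptase, and whose descriptions call them cells, entered no comparison. Pax5 was recorded in the second of them at Ct 16.50, and not in the first; Pou2af1 was recorded in neither. In a control without reverse transcriptase no Ct would be due, and this signal in wells outside the comparisons is given here for that reason. Ebf1 was recorded at Ct 14.40 and 11.59 and Atp5a1 at 12.08 and 11.51 in the first and second well. The 10 FrA Gfra2- Bst1- cells of the same plate that had Pax5 averaged Ct 18.25 ± 1.85 (SD). Whether these wells hold cells with reverse transcriptase was not tested.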

How the results depend on the processing

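The Gfra2 differences for both genes kept their direction and their call under every alternative run except a detection limit of Ct 18, below every Pou2af1 reading, where the Pou2af1 differences and all its joint shares were 0. At a limit of Ct 24, Pou2af1 was 22.1 points higher with Bst1 and 20.2 points higher in FrA Gfra2+ Bst1- than in CLP Ly6d+Gfra2+, both then called, its share among Pax5 cells of CLP Ly6d+Gfra2+ was 35.2% and the share of cells with both 23.2%. In the middle 50% of reference Ct, the Bst1 difference for Pou2af1 was 22.3 points (15 cells of FrA Gfra2+ Bst1+), Pax5 was found in 100% of the Pou2af1 cells of CLP Ly6d+Gfra2+, and 8 assays were associated with Pax5 there. When only cells whose Gfra2 transcript matched their gate were kept, an alternative chosen after seeing the data, 3 were. Relative to the spike-in, the Pou2af1 level was 1.85 cycles higher with Bst1. A rule of 15 or 30 points called 9 or 1 assays for gain of Ly6d, 13 or 4 for Gfra2 in CLP and 6 or 1 for Bst1; 15 points called 5 for FrA Gfra2+ Bst1- against CLP Ly6d+Gfra2+, and 30 points 2 for the Gfra2- groups.

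Leaving out 1 plate at a time gave 19.5 to 24.6 points for Pax5 and 1.72 to 20.9 points for Pou2af1 in FrA Gfra2+ Bst1- against CLP Ly6d+Gfra2+, 85.7% to 100% for Pax5 among Pou2af1 cells of CLP Ly6d+Gfra2+, 4 to 7 assays associated with Pou2af1 in FrA Gfra2+ Bst1-, and 0.31 to 0.87 cycles between Pax5 pools. Relative to the reference assays the Pax5 pool difference was -0.36 cycles, and without pairing by plate that of Pou2af1 was -0.23, since 2 more wells enter at 20 cells. Among 129 readings of single associations, 118 kept their call and 11 lost it, with none reversed. Many of these readings could not change. Taking any recorded Ct gave the main values for each association, and dropping the filter on cells altered only FrA Gfra2- Bst1-. Pools were paired by plate. For the sorted groups of single cells, no paired analysis was possible because numbers in the labels only name wells and the groups lie on different plates. Late Ct limits Pou2af1: cells without a reading may hold transcript that was not detectable. The number of animals is not known.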
